A study of Mus musculus with 16 samples.

Results

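The integrated stress response was followed through 10 of its regulators and feedback genes, *Atf4*, *Atf5*, *Ddit3* (which encodes CHOP), *Cebpg*, *Trib3*, *Chac1*, *Asns*, *Sesn2*, *Nupr1* and *Ppp1r15a*, in macrophages activated in the presence or absence of a gamma-secretase inhibitor (GSI). They are 10 of 47069 genes in the deposited count table. All 10 were found by symbol, and all 10 passed the filter on low counts. The genes were picked by their roles and chosen from results of these same libraries, with the difference between GSI and DMSO in view, so their own values, intervals and calls describe the contrast they were chosen on and are no independent test of it. Bone marrow-derived macrophages (BMMs) were grown from C57BL/6 mice aged 8 to 10 weeks in medium conditioned by L929 cells. All cells were primed overnight with IFNγ (10 ng/mL) and activated for 1 hr with *Salmonella* LPS (100 ng/mL) and IgG-opsonized ovalbumin, an immune complex (LPS/ICs). The GSI group received DAPT (25 μM) and the control group the vehicle DMSO (0.01%). Both were added overnight before activation, as the study's general methods describe. Some of its figure legends give a shorter pretreatment, and its sequencing section does not state one. Each group had 2 replicates, and the labels do not say whether these came from separate mice or cultures, so p-values measure only the spread between these libraries. DAPT prevents γ-secretase from cleaving Notch receptors and other membrane proteins. Unstimulated cells and a second inhibitor were not analysed here.

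In the integrated stress response, kinases that sense missing amino acids, misfolded proteins in the endoplasmic reticulum (ER), viral RNA or heme shortage phosphorylate the initiation factor eIF2. General translation then slows, while the mRNA of the transcription factor ATF4 is translated better. ATF4 pairs with other bZIP factors, such as C/EBPγ and CHOP, and binds C/EBP-ATF response elements in genes of amino acid supply, tRNA charging and redox balance. Several targets act as brakes, among them TRIB3, which restrains ATF4 and CHOP, and GADD34, encoded by *Ppp1r15a*, which brings the phosphatase to eIF2. In macrophages the response is known for linking nutrient supply and ER function to cytokine output.

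The DNA just upstream of the genes is shown because ATF4 is known to act through short elements in its target genes. RefSeq promoter windows on GRCm38.p6 (250 bases before to 50 after each start site) matched all 10 genes, with 2 start sites for *Atf5*. The C/EBP-ATF element was searched as TGATGNAA (N is any base) and the cAMP response element, bound by ATF and CREB factors, as TGACGTCA, on both strands. The matches of the 2 motifs shared no bases. The C/EBP-ATF element was found at 4 of the 10 genes, in 36.4% of their 11 windows against 3.97% of all 32851 windows. The cAMP response element was found at *Ppp1r15a* alone, in 9.09% of the 11 windows against 1.79% of all windows. A match describes letters and does not show that a factor binds. The 250 bases upstream of 4 start sites follow, 5′ to 3′ on the gene's strand, with the matched bases in capitals.
Chac1 (chr2:119350992-119351241, plus strand, C/EBP-ATF element on the reverse strand from position -193): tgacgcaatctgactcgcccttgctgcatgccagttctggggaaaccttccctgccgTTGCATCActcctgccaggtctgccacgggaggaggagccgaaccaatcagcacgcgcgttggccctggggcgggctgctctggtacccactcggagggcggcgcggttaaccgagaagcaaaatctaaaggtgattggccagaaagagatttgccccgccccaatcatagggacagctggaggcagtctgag
Asns (chr6:7693210-7693459, minus strand, C/EBP-ATF element on the forward strand from position -23): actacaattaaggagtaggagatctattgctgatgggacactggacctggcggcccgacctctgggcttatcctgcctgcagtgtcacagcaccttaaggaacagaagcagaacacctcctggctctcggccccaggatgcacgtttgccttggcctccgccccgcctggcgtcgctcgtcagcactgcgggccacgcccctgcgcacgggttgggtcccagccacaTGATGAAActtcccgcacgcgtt
Nupr1 (chr7:126625471-126625720, minus strand, C/EBP-ATF element on the reverse strand from position -110): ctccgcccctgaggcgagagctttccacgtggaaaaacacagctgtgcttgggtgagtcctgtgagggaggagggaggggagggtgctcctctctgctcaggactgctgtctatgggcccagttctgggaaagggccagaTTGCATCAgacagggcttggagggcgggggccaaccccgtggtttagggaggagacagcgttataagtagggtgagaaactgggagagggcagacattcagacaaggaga
Ppp1r15a (chr7:45526269-45526518, minus strand, cAMP response element from position -12): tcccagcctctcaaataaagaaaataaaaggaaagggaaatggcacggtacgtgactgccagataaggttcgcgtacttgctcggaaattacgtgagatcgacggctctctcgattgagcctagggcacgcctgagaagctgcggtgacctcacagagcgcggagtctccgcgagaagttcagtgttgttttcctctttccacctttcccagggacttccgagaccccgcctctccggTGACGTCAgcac

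*Trib3* held its match just after the start site, from position 15, and 30 bases around it are shown for comparison.
Trib3 (chr2:152344028-152344057, minus strand, C/EBP-ATF element on the reverse strand): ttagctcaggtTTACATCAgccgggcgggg
*Chac1* and *Nupr1* share the same 8 matched letters, TTGCATCA, whereas *Trib3* has TTACATCA and *Asns* has TGATGAAA on the other strand. No match was found in the windows of *Atf4*, *Atf5*, *Ddit3*, *Cebpg* and *Sesn2*, which says only that these letters are absent from these windows.

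The summed runs gave 42694655 to 56932059 counts per library. The macrophage markers were abundant: all 8 listed were detected, and their summed level was 12280 and 12480 CPM (counts scaled to a common library size after TMM normalization) with DMSO and 9488 and 10410 CPM with GSI. Of these 8, 6 fell and 1, *Mertk*, rose with GSI, and the part of this shift in the values below was not tested. In bulk samples, fewer cells of a type and less RNA per cell cannot be told apart. Markers of other cells were low: their summed levels were at most 1.43 CPM for 10 neutrophil markers, 0.145 CPM for 7 lymphocyte markers, 5.53 CPM for 5 dendritic cell markers and 0.0529 CPM for 8 stromal, erythroid and mast cell markers. Most of the dendritic cell sum was *Xcr1*, which had 5.02 and 4.63 CPM with DMSO and 3.77 and 3.44 CPM with GSI and fell (log2 fold change -0.42, FDR = 0.0175), a gene named after its values were seen. The part of this shift in the values below was not tested either. In these 4 lists of other cells, 3, 2, 1 and 6 markers had 0 counts in every library, among them *Elane*, *Cd3g*, *Siglech* and *Col3a1*. Counts of 0 allow up to 3 counts, or 0.0529 to 0.0697 CPM in these libraries, and these limits cover counting error only.

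All 10 regulators were higher on average with GSI, from 1.07-fold for *Ppp1r15a* to 4.54-fold for *Chac1*. The false discovery rate (FDR) of edgeR's quasi-likelihood test over 13211 genes was under 0.05 for 9 of the 10 genes, all higher, and for none lower, with *Ppp1r15a* not called. Among all genes tested, 19.0% were called higher and 21.9% lower. A log2 fold change above 1.5 was reached in addition by 3 of the 10, *Asns*, *Trib3* and *Chac1*, against 0.742% of all genes tested. Both GSI libraries lay above both DMSO libraries for 9 of the 10 genes, with *Nupr1* the exception, and for 35.8% of all genes tested. The median log2 fold change of the 10 genes was 1.04, beside 0.015 over all genes tested. Because this contrast was in view when the genes were chosen, nothing is read from these counts.

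**Figure D1:**
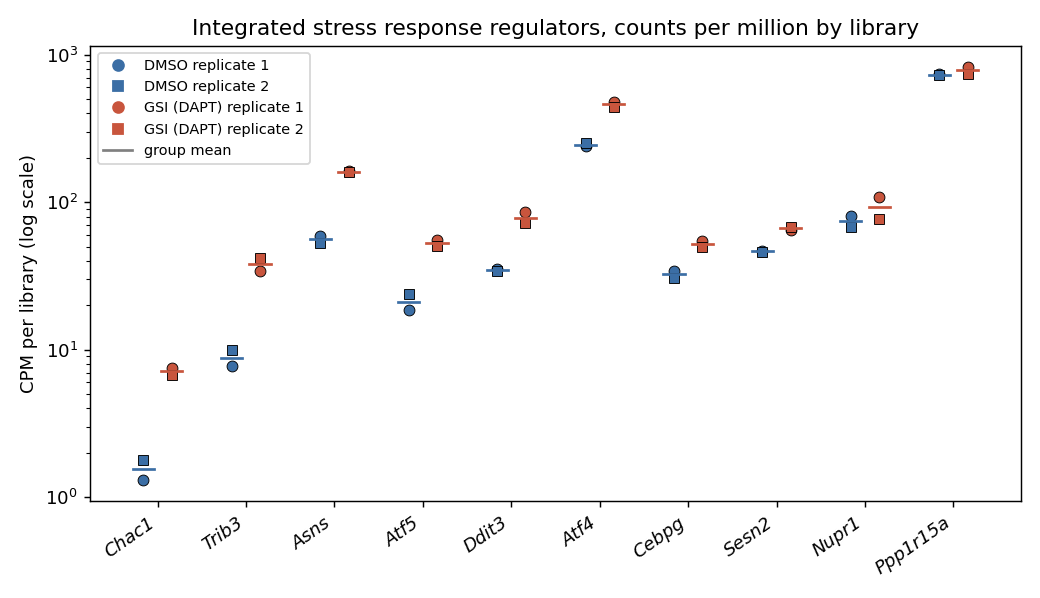
CPM of each gene (log scale) in the 2 DMSO and 2 GSI libraries, with a line at each group mean, ordered by fold change. The GSI points lie clearly above the DMSO points from Chac1 to Sesn2, mix with them for Nupr1 (77.4 CPM with GSI between 68.3 and 80.2 CPM with DMSO), and lie just above them for Ppp1r15a.

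The transcription factors that carry the signal were 1.61- to 2.49-fold higher with GSI. *Atf4* (ENSMUSG00000042406, chromosome 15 of GRCm38, 80255184 to 80257541), the central activator, had 239 and 253.5 CPM with DMSO and 476 and 444 CPM with GSI. The replicates lay close together in both groups, and the mRNA was 1.87-fold higher with GSI (0.90 ± 0.073 on the log2 scale, estimate and standard error). *Atf5* (ENSMUSG00000038539, chromosome 7, 44812256 to 44816658), a close relative of ATF4 linked to mitochondrial stress, had 18.7 and 23.7 CPM with DMSO and 55.7 and 50.3 CPM with GSI. The replicates of each group differed by about as much in CPM, and the groups did not overlap, at 1.31 ± 0.095 on the log2 scale.

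*Ddit3* (ENSMUSG00000025408, chromosome 10, 127290774 to 127296288) encodes CHOP, a bZIP factor of prolonged stress. It had 35.03 and 34.12 CPM with DMSO and 85.4 and 72.1 CPM with GSI, so that the DMSO libraries were nearly equal and both GSI libraries lay far above them. The difference was 1.19 ± 0.083 on the log2 scale. *Cebpg* (ENSMUSG00000056216, chromosome 7, 35046422 to 35056573), a frequent partner of ATF4, showed the smallest difference of the 4 factors, from 34.2 and 30.8 CPM with DMSO to 54.55 and 50.04 CPM with GSI. This amounted to 0.69 ± 0.080 on the log2 scale, with no overlap between the groups. In GENCODE M21, *Ddit3* shares 68 exon bases with *Mars* on the opposite strand and *Atf5* shares 82 with *Il4i1*, out of 1713 and 1993 exon bases. A second annotated *Ddit3* gene model on the same strand shares 105 exon bases and had no row of its own in the table. *Mars* itself had 50.04 and 49.12 CPM with DMSO and 76.1 and 78.9 CPM with GSI, and the part of these shared bases in the counts was not tested.

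Among the 10, the 3 with the largest differences were targets that ATF4 is known to induce. *Chac1* (ENSMUSG00000027313, chromosome 2, 119351229 to 119354381), which degrades glutathione, had few reads in the control cells, with 56 and 102 counts in the DMSO libraries against 365 and 334 in the GSI libraries, or 1.30 and 1.80 CPM against 7.55 and 6.76 CPM. Its difference of 2.18 ± 0.16 on the log2 scale was the largest of the 10 and ranked 32 of 13211 genes from the top. With any 1 library omitted it ran from 1.99 to 2.45.

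*Trib3* (ENSMUSG00000032715, chromosome 2, 152337422 to 152344032), the pseudokinase that restrains ATF4 and CHOP, had 7.72 and 9.91 CPM with DMSO and 34.1 and 41.7 CPM with GSI. The lowest GSI library was still more than 3 times the highest DMSO library. The difference was 2.09 ± 0.11 on the log2 scale, rank 39. *Asns* (ENSMUSG00000029752, chromosome 6, 7675169 to 7693254), asparagine synthetase and the classical amino acid response gene, had 59.2 and 52.8 CPM with DMSO and 164 and 159 CPM with GSI. Replicates lay close together in both groups, and the difference was 1.53 ± 0.076 on the log2 scale, rank 91. Without the second DMSO replicate it was 1.44, under the limit of 1.5.

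The remaining genes, *Sesn2*, *Nupr1* and *Ppp1r15a*, had the smallest differences of the regulators, with *Cebpg* next at 0.69 on the log2 scale. They are brakes and stress effectors with other inputs besides ATF4, but the part of these inputs in their values was not tested. Being a brake did not go with a small difference throughout, since *Trib3* had 2.09 on the log2 scale. *Sesn2* (ENSMUSG00000028893, chromosome 4, 132492032 to 132510501), a leucine sensor that inhibits mTORC1, had 47.0 and 45.7 CPM with DMSO and 64.9 and 68.2 CPM with GSI. The groups did not overlap and the difference was 0.52 ± 0.072 on the log2 scale. *Nupr1* (ENSMUSG00000030717, chromosome 7, 126623249 to 126630861), a small chromatin-associated stress protein, had 80.2 and 68.3 CPM with DMSO and 108 and 77.4 CPM with GSI. The groups overlapped, since the second GSI library lay below the first DMSO library. Its difference of 0.32 ± 0.11 on the log2 scale dropped to 0.062 without the first GSI replicate and to 0.21 without the second DMSO replicate. In both cases, and with DESeq2 (0.31), it was no longer called.

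*Ppp1r15a* (ENSMUSG00000040435, chromosome 7, 45522916 to 45526268), the feedback subunit that restores translation, had 736 and 728 CPM with DMSO and 831 and 740 CPM with GSI, so that the second GSI library was barely above the control level. The difference was 0.10 ± 0.076 on the log2 scale (95% interval -0.057 to 0.26). *Ppp1r15a* is itself known as a CHOP target.

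Levels can be compared between genes only per exon length. In CPM per kb of exon with DMSO, *Ppp1r15a* led with 251 and 248, followed by *Atf4* with 101 and 107.5. *Nupr1* came next with 31.9 and 27.2. *Asns*, with 21.7 and 19.3, and *Ddit3*, with 20.5 and 19.9, could not be ordered because their replicates overlapped. *Sesn2*, *Atf5*, *Cebpg*, *Trib3* and *Chac1* followed in that order without overlap, down to 0.795 and 1.10 for *Chac1*. With GSI the level of *Atf4* was 202 and 188 CPM per kb, still below the 283 and 252 of *Ppp1r15a*. *Asns* came next at 59.9 and 58.2, above *Ddit3* at 49.9 and 42.1, which overlapped *Nupr1* at 43.0 and 30.8. *Trib3* reached 16.03 and 19.64 CPM per kb, overlapping *Sesn2* at 18.67 and 19.62, whereas with DMSO it had lain below *Cebpg* and above *Chac1* alone. Within a group the replicates differed in no common direction with DMSO, where 6 of 10 genes were higher in the first replicate, while 8 of 10 were higher in the first GSI replicate.

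Of the 6 nearest relatives tested, 3 fell, none was called higher and 3 were not called (edgeR, FDR under 0.05). Over all genes tested, 21.9% were called lower and 19.0% higher. The estimates of 2 of the 6, *Chac2* and *Asnsd1*, lay above 0. *Trib1*, a tribbles pseudokinase that destabilizes C/EBPα, fell from 240 and 237 CPM with DMSO to 125 and 128 CPM with GSI, at -0.91 ± 0.069 on the log2 scale (edgeR, FDR = 2.18e-09). The pseudokinase family was thus split, with *Trib3* higher, *Trib1* lower and *Trib2* at 0 counts in all 4 libraries. Of the sestrins, *Sesn1*, a p53 target, fell from 21.1 and 18.4 CPM to 12.04 and 11.34 CPM (log2 fold change -0.75, FDR = 2.39e-06). *Sesn3*, a FOXO target, fell from 9.67 and 8.57 CPM to 6.93 and 6.56 CPM (log2 fold change -0.43, FDR = 0.00384), a call that was lost without the first DMSO replicate.

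The other relatives were not called. *Ppp1r15b*, the constitutive counterpart of GADD34, had 299 and 293 CPM with DMSO and 270 and 264 CPM with GSI (log2 fold change -0.15, FDR = 0.0979). *Chac2*, the constitutive counterpart of CHAC1, had a log2 fold change of 0.19 with a 95% interval from -0.14 to 0.52. *Asnsd1*, which carries an asparagine synthetase domain, had a log2 fold change of 0.23 (FDR = 0.0827). It was called higher with the replicate number as a block (0.23, FDR = 0.0433) and with the runs as separate samples (0.23, FDR = 0.00405). *Nupr1l*, the relative of *Nupr1*, had 4 to 12 counts per library and was not tested.

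**Figure D2:**
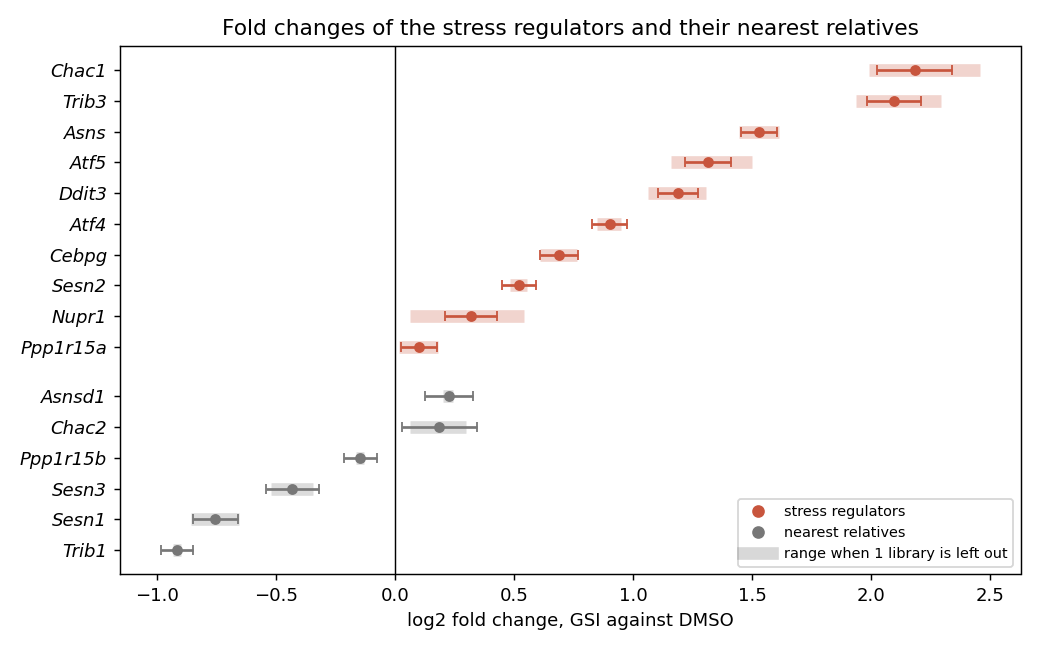
Log2 fold changes of GSI against DMSO for the 10 stress regulators and their 6 tested relatives. Points are estimates with their standard errors, and shaded bars give the range when 1 library is left out. The regulators run from 2.18 for Chac1 to 0.10 for Ppp1r15a, while Trib1, Sesn1 and Sesn3 lie below 0.

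Upstream of ATF4, the mRNAs of the 4 eIF2 kinases were not called. *Eif2ak1* (HRI, heme and mitochondrial stress) had a log2 fold change of -0.076, *Eif2ak2* (PKR, double-stranded RNA) -0.11, *Eif2ak3* (PERK, ER stress) -0.19 and *Eif2ak4* (GCN2, amino acid shortage) -0.15. The FDR ranged from 0.107 for *Eif2ak3* to 0.412 for *Eif2ak1*, and the 95% intervals together ran from -0.38 to 0.070. With 1 library left out, the log2 fold change of *Eif2ak3* ran from -0.29 (without the second GSI replicate) to -0.095. That of *Eif2ak2* ran from -0.18 to -0.032 and that of *Eif2ak4* from -0.22 to -0.078. *Eif2ak3* was called lower with the replicate number as a block (-0.19, FDR = 0.0466) and with the runs as separate samples (-0.18). With the runs as separate samples *Eif2ak2* (-0.10, FDR = 0.0119) and *Eif2ak4* (-0.15, FDR = 0.00547) were also called lower. The kinases act through phosphorylation, which these data do not measure. Of 18 genes for kinases, their regulators, eIF2, its exchange factor eIF2B and the separate initiation factor eIF2A, 6 rose and 2 fell. Over all genes tested, 19.0% were called higher and 21.9% lower. The median log2 fold change of the 18 was -0.055.

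Among these 18, *Impact*, an inhibitor of GCN2 activation, rose most, from 48.7 and 54.0 CPM to 74.3 and 80.1 CPM (log2 fold change 0.59, FDR = 3.44e-06). *Eif2s2*, the β subunit of eIF2, rose from 123 and 105 CPM to 175 and 158 CPM (log2 fold change 0.55, FDR = 1.49e-05). *Eif2b5*, the catalytic subunit of eIF2B, had a log2 fold change of 0.30 (FDR = 0.00376), and this call was lost without the first DMSO replicate. The other eIF2B genes, named after their values were seen, also had estimates above 0 (log2 fold changes in parentheses). *Eif2b1* (0.26, FDR = 0.0227), *Eif2b2* (0.23, FDR = 0.0307) and *Eif2b4* (0.24, FDR = 0.0405) were called higher, and *Eif2b3* (0.21, FDR = 0.155) was not. The 2 that fell, *Eif2a* and *Dnajc3*, were named after their values were seen. *Eif2a* encodes eIF2A, which is not a subunit of eIF2, and *Eif2s1*, the gene of the α subunit that the kinases phosphorylate, was not called (log2 fold change -0.10, FDR = 0.284). *Eif2a* and *Dnajc3* had log2 fold changes of -0.20 (FDR = 0.0369) and -0.19 (FDR = 0.0299). Without the first DMSO replicate, 2 genes of the list rose and 0 fell, and without the second DMSO or the first GSI replicate 1 fell.

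Most targets of ATF4 in amino acid supply were higher with GSI. Of 21 tested genes of this list, 15 rose and 0 fell, beside 19.0% and 21.9% over all genes tested. The median log2 fold change of the list was 0.88, beside 0.015 over all genes. *Phgdh*, the first enzyme of serine synthesis, rose from 7.34 and 7.40 CPM to 32.3 and 32.4 CPM (2.13 ± 0.089 on the log2 scale, edgeR FDR = 4.40e-13). *Slc6a9*, a glycine transporter, rose from 1.84 and 1.62 CPM to 7.39 and 6.40 CPM (log2 fold change 2.002, FDR = 1.87e-09). *Slc7a5*, the light chain of a leucine transporter, rose from 11.3 and 11.3 CPM to 34.3 and 30.5 CPM (log2 fold change 1.52, FDR = 7.52e-11). In these 3 genes the groups were far apart and the replicates close.

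*Slc7a11*, the cystine transporter and a well-known ATF4 target, was among the 6 not called. It had 27.8 and 33.8 CPM with DMSO and 26.9 and 31.8 CPM with GSI, and the groups overlapped. Its log2 fold change was -0.071 (95% interval -0.27 to 0.13, FDR = 0.589), and its sign changed when the second DMSO or the first GSI replicate was left out. Cystine imported by this transporter feeds the synthesis of glutathione, which CHAC1 degrades. The C/EBP-ATF element was found in the windows of 4 of the 17 genes of this list that have one, in 19.0% of 21 windows.

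Of 21 tRNA-charging genes (20 cytosolic aminoacyl-tRNA synthetases and the tRNA exporter *Xpot*), 16 rose and 1 fell, beside 19.0% and 21.9% over all genes. The amounts in this list were smaller, with a median log2 fold change of 0.35. The largest were *Aars* (alanine), from 168 and 179 CPM to 329 and 320 CPM, *Sars* (serine) and *Yars* (tyrosine), with log2 fold changes of 0.90, 0.86 and 0.81. The FDR of *Aars* by edgeR was 3.73e-09. *Qars* (glutamine), named after its value was seen, fell by 0.20 on the log2 scale, a call lost without the second DMSO or the first GSI replicate. In 14 of these genes with a promoter window, 5 held the C/EBP-ATF element (35.7% of 14 windows).

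Targets of ATF4 or CHOP outside amino acid supply changed in both directions. Of 18 tested, 6 rose and 4 fell, beside 19.0% higher and 21.9% lower over all genes tested. The median log2 fold change of the 18 was 0.11. *Gdf15*, a secreted stress hormone, rose from 7.72 and 7.95 CPM to 46.9 and 43.8 CPM, a log2 fold change of 2.53 (FDR = 3.15e-14), beside 2.18 for *Chac1*. *Hmox1*, heme oxygenase, which NRF2 also induces, rose from 119 and 139 CPM to 265 and 244 CPM (log2 fold change 0.98). *Bcl2l11*, encoding the death protein BIM and a known CHOP target, fell from 591 and 572 CPM to 322 and 316 CPM (log2 fold change -0.87, FDR = 6.57e-09).

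The death receptor gene *Tnfrsf10b*, another CHOP target, and *Vegfa* also fell and were named after their values were seen, with log2 fold changes of -0.80 (FDR = 6.00e-05) and -0.46 (FDR = 2.38e-05). The other 4 that rose, also named after their values were seen, were the translation repressor gene *Eif4ebp1* (0.73, FDR = 2.69e-07), the death gene *Bbc3* (0.39, FDR = 0.014), the ER protein gene *Herpud1* (0.21, FDR = 0.0442) and the autophagy gene *Map1lc3b* (0.24, FDR = 0.0105), with log2 fold changes in parentheses. *Atf3*, a bZIP repressor that both stress and LPS induce, had 845 and 834 CPM with DMSO and 728 and 744 CPM with GSI. Its log2 fold change of -0.19 (FDR = 0.0398) was opposite in sign to that of *Atf4*, and its call was lost whichever of the 4 libraries was omitted. *Fgf21* had 0 counts in every library, and *Stc2* and *Adm2* at most 1.

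Among 21 bZIP genes whose products can pair with these factors or compete with them, 5 rose and 7 fell. Over all genes tested, 19.0% were called higher and 21.9% lower. The median log2 fold change of the 21 was 0.0018. *Fosl2*, an AP-1 subunit, fell from 153 and 144 CPM to 49.9 and 57.9 CPM (log2 fold change -1.46, FDR = 2.48e-11). *Batf* rose from 7.46 and 6.68 CPM to 11.8 and 10.5 CPM (log2 fold change 0.66, FDR = 6.28e-05). *Batf3* fell from 4.58 and 5.22 CPM to 3.27 and 3.24 CPM (log2 fold change -0.60, FDR = 0.00166). The number that rose ranged from 3 without the first GSI replicate to 8 without the second.

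The ATF6 and XBP1 branch of the ER stress response, which induces chaperones, was followed through 22 genes. Of these, 3 rose, 5 fell and 14 were not called, beside 19.0% higher and 21.9% lower over all genes tested, and the median log2 fold change was 0.059. *Hspa5*, the ER chaperone BiP and the standard marker of this branch, had 1961 and 1901 CPM with DMSO and 1830 and 2040 CPM with GSI. The groups overlapped, with a log2 fold change of 0.0033 (95% interval -0.16 to 0.16, FDR = 0.977) whose sign depended on the normalization. *Creld2* and *Sec61b* rose, with log2 fold changes of 0.43 (FDR = 7.98e-05) and 0.39 (FDR = 0.000381). *Manf*, named after its value was seen, also rose (log2 fold change 0.23, FDR = 0.0149). *Atf6* itself fell from 191 and 173 CPM to 126 and 130 CPM (log2 fold change -0.51, FDR = 9.43e-06). The other 4 that fell, *Sel1l*, *Ero1lb*, *Edem1* and *Dnajc3*, were named after their values were seen and had log2 fold changes between -0.28 and -0.19. Without the first GSI replicate, 5 genes of this branch rose and 3 fell. No window of the 19 genes with one held the C/EBP-ATF element, beside 3.97% of all windows.

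Mitochondrial chaperones and proteases, which ATF5 helps to induce, were mostly higher. Of 10 genes, 7 rose and 0 fell, beside 19.0% and 21.9% over all genes tested. The median log2 fold change of the 10 was 0.31. In the 8 of these genes with a promoter window, the C/EBP-ATF element was found in 0 of 9 windows. *Hspa9* (mortalin) rose from 291 and 297 CPM to 520 and 460 CPM (log2 fold change 0.74, FDR = 1.44e-07). *Hspe1*, the small chaperonin, rose from 41.7 and 41.8 CPM to 62.1 and 60.5 CPM (log2 fold change 0.55), and *Dnaja3* had a log2 fold change of 0.44 (FDR = 0.000122). Of 9 cytosolic heat shock genes tested, 1 rose and 4 fell, beside 19.0% and 21.9% over all genes tested. The median of the 9 was -0.027. The 1 that rose, *Hsp90ab1*, was named after its value was seen and had a log2 fold change of 0.28 (FDR = 0.0058). Without the first DMSO replicate 0 genes of this list rose, and without the second 2 rose. *Hspa1b* fell from 25.2 and 20.8 CPM to 11.3 and 11.1 CPM (log2 fold change -1.03, FDR = 5.86e-08), *Hspa1a* had a log2 fold change of -0.50 and *Bag3* of -0.32. *Hspa1a* and *Hspa1b* are near-identical copies, so that the counts of each are uncertain.

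**Figure D3:**
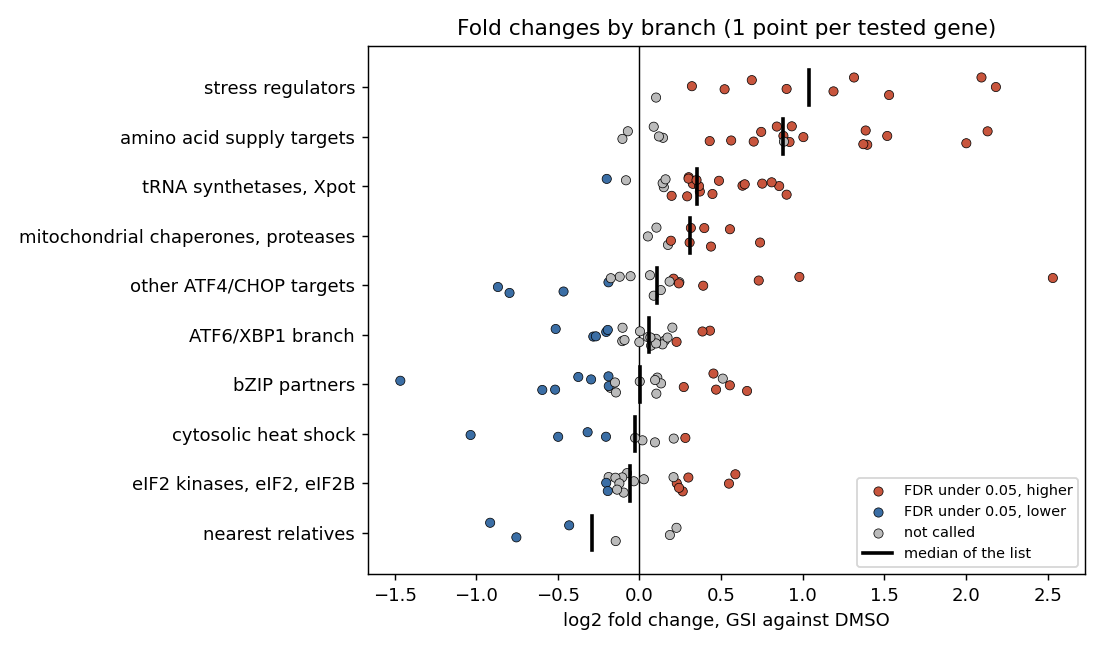
Log2 fold changes of GSI against DMSO for every tested gene of 10 lists, 1 point per gene, coloured by the call at an FDR under 0.05, with the median of each list as a black line. The medians are 1.04 for the stress regulators, 0.88 for amino acid supply, 0.35 for tRNA charging and 0.31 for mitochondrial chaperones and proteases, and lie between -0.29 and 0.11 for the other 6 lists.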

How the data were processed

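Poly(A) RNA of IFNγ-primed BMMs activated with LPS/ICs in the presence of DAPT or DMSO was sequenced as strand-specific libraries, 2 per group. The authors trimmed the reads, aligned them with STAR (2.5.0a in the submitters' processing notes) and assigned them to genes with HTSeq. These raw counts were deposited for 47069 genes in 16 columns, with 4 runs for each of 4 libraries. The study's methods name mm10, while the notes list both mm9 and mm10, and the strand setting of the counting was not given in the sources used here. Gene positions and exon lengths are from GENCODE M21 (GRCm38).

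Runs were summed per library, giving 42694655 to 56932059 counts. Groups were taken from the sample labels. Genes were filtered with edgeR's filterByExpr, which left 13211, scaled by TMM and tested with edgeR's quasi-likelihood test (edgeR 4.0.16, limma 3.58.1, R 4.3.3), with Benjamini-Hochberg adjustment over all genes tested. A gene was called at an FDR under 0.05. A log2 fold change above 1.5 was the stricter threshold. CPM are counts scaled by the TMM-normalized library size of the genes tested. The fitting code was tested on simulated data. Other scalings, filters, DESeq2 (1.42.0), a replicate block, single runs and leaving out each library were tried. The text names the 10 regulators, their relatives, the 3 called genes with the largest absolute log2 fold change of each other pathway list, and *Atf3*, *Hspa5*, *Slc7a11* and the 4 eIF2 kinases. All other genes, among them cell type markers, genes that overlap the regulators, untested list members and the remaining called genes of a list, were named after their values were seen. The 10 genes and all lists were chosen with earlier results of these data known.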

Additional observations from a re-analysis of the deposited data

How the results depend on the processing

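Of 517 alternative values for the log2 fold changes of the 47 tested genes named by the rule (genes named after their values were seen are not among them), 491 kept their direction and their side of the threshold, 9 lost the call, 9 gained it and 8 changed sign, all 8 of them in *Hspa5* and *Slc7a11*. *Hspa5* (0.0033) was -0.0032 with RLE normalization, -0.0040 with no normalization factors, -0.0019 with at least 10 counts in every library, and -0.0032 with DESeq2. Leaving out 1 library moved it between -0.077 and 0.079, and *Slc7a11* between -0.20 and 0.076. The median of all genes moved between 0.0069 and 0.024 over the settings. The 10 regulators gave 9 higher calls with the replicate block, 8 to 9 with 1 library left out, 8 with DESeq2 and 10 with 16 runs as separate samples, which are technical and understate the error. With the added limit of 1.5 on the log2 fold change, 3 regulators, 3 amino acid supply genes and 1 other target were called higher, and 0 of the other lists in either direction (relatives, eIF2 genes, bZIP genes, tRNA charging, ATF6/XBP1, mitochondrial and heat shock genes). Over all genes this limit left 98 higher and 287 lower in place of 2504 and 2888. With 16 runs as separate samples 4090 genes were higher, and the calls were 1 higher among the relatives, 7 lower among eIF2 genes, 8 higher among bZIP genes, 2 lower among tRNA-charging genes, 12 higher in the ATF6/XBP1 list and 2 higher among heat shock genes. The replicate block gave 3130 genes higher and 3314 lower, with 1 higher among the relatives, 6 in the ATF6/XBP1 list and 2 among heat shock genes. The replicate numbers do not mark a stated shared batch, and the deviations of same-numbered libraries from their group means correlated with r = 0.155 across 13211 genes and 0.249 across the 7581 with a mean of at least 10 CPM. With 2 pairs only, this does not settle whether the numbers pair the samples, and the block was kept as an alternative. DESeq2 called 3 eIF2 genes higher and 1 lower, and no filter on low counts left 0 lower. With 1 library left out, the calls ranged over 2 to 5 higher and 0 to 2 lower for eIF2 genes, 3 to 8 higher for bZIP genes, 0 to 1 lower for tRNA charging, 2 to 5 higher and 3 to 5 lower for ATF6/XBP1, and 0 to 2 higher for heat shock genes. The cause of these shifts was not tested. Among the 10 regulators, *Chac1* had the fewest counts, with 56 in the lowest library, and counts of this size limit its precision.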

Other observations

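Only 2 libraries per group were available, both at 1 hr after activation, and mRNA levels do not report eIF2 phosphorylation or ATF4 protein. The inhibitor's other substrates, and direct effects of the compound, cannot be told apart from loss of Notch cleavage in this design.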
